A study of Mus musculus with 4 samples.

Results

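The Lin28, Igf2bp and Hmga genes, with Trim71 and Dicer1, were followed in the embryonic mouse cerebral cortex with and without targeting of Lhx2. The members were taken by symbol: 9 genes were listed, 7 of them (Lin28b, Igf2bp1, Igf2bp2, Igf2bp3, Hmga1, Hmga2 and Dicer1) were among the 13289 genes of the count table, and all 7 passed the low-count filter of the test. Lin28a and Trim71 were not analysed here. The series holds bulk RNA-seq of polyadenylated RNA from fresh cortex at embryonic day 15 (E15), in 2 control libraries, titled WT, and 2 Lhx2 cKO libraries, where cKO is read as conditional knockout. The allele, the Cre driver, the strain, the sex and the number of embryos behind a library are not given in the sources used here, and neither is any agent that both groups share. Nothing states that the 2 libraries of a group came from separate embryos, so p-values measure the spread between these libraries, which may be technical.

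Lin28a and Lin28b are RNA-binding proteins of early progenitors that block the maturation of the let-7 family of microRNAs. Let-7 in turn represses Lin28b, the Igf2bp genes, Hmga2 and Trim71 through sites in their 3' untranslated regions (3'UTRs), so that this group of genes falls and let-7 rises as development proceeds. In the cortex, high Lin28, Igf2bp1 and Hmga2 mark early neural progenitors, and their decline accompanies the change of progenitors towards later fates. Mature let-7 is not measured by RNA-seq of polyadenylated RNA, so the values below concern the messenger RNAs only.

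The sequences that tie these genes together are the let-7 seed, bases 2 to 8 from the 5' end of the microRNA, and its match in the 3'UTRs. The 9 mature mouse let-7 family sequences in RefSeq (GRCm38.p6) all carried the same seed, shown in capitals in 4 of them:
mmu-let-7a-5p: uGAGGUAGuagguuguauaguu
mmu-let-7b-5p: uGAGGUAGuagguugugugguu
mmu-let-7d-5p: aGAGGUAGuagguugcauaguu
mmu-miR-98-5p: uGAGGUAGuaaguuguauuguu

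Lin28 proteins bind the precursor hairpins of these microRNAs, where the letters GGAG in the terminal loop are their known contact. Of the 12 let-7 and miR-98 hairpins in RefSeq, 9 held GGAG anywhere in the hairpin, against 44.8% of the 288 mouse hairpins of 83 to 108 bases. The let-7g hairpin is shown with GGAG in capitals, and the let-7b hairpin as one of the 3 without it:
Mirlet7g: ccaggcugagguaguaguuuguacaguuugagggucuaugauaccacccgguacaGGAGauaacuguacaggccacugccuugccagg
Mirlet7b: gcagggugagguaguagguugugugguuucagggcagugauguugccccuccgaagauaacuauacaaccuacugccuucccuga

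The match to the seed in a messenger RNA reads CTACCTC, searched on the transcript strand only, and CTACCTCA where an A follows. In the longest annotated 3'UTR of each gene (GENCODE M21 transcripts), 6 of the 7 members held at least 1 match, with 15 matches in all, of which 7 had the following A. Lin28b, Igf2bp1 and Hmga2 held 4 each, Igf2bp2, Igf2bp3 and Hmga1 held 1 each, and Dicer1 held 0 in a 3'UTR of 3851 bases. Among tested genes whose 3'UTR was within 20% of the same length, 4 or more matches were found in 0.297% for Lin28b (3'UTR of 4445 bases), 0.223% for Igf2bp1 (6337 bases) and 0.122% for Hmga2 (3014 bases). At least 1 match was found in 12.3% at the length of Igf2bp2, 13.3% at that of Igf2bp3 and 8.63% at that of Hmga1. Each of these shares counts the member itself, so the share among other genes was smaller. The sets held 1010 genes for Lin28b, 449 for Igf2bp1 and 1639 for Hmga2. A match describes the letters and does not show that the site is used. One match per gene is shown, with the bases that match the seed, and the following A where present, in capitals:
Lin28b: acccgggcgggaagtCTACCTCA
Igf2bp1: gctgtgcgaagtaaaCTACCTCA
Igf2bp2: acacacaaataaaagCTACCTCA
Igf2bp3: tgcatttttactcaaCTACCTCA
Hmga1: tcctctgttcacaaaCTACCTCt
Hmga2: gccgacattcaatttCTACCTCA

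The matches shown start at base 36 of the Lin28b 3'UTR, base 1715 of Igf2bp1, base 1313 of Igf2bp2, base 548 of Igf2bp3, base 801 of Hmga1 and base 58 of Hmga2. The other matches were at bases 2410, 2582 and 3998 of Lin28b, at 4136, 4730 and 5353 of Igf2bp1, and at 1295, 1733 and 2591 of Hmga2. In Igf2bp1, 3 of the 4 matches had the following A, against 1 of 4 in both Lin28b and Hmga2.

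Library totals were between 22294237 and 24609627 counts, and levels are given as CPM, counts scaled to that total. A total of 3 counts, used as the floor of detection, corresponds to 0.122 to 0.135 CPM. Lhx2 itself, the targeted LIM-homeodomain factor, was at 311 and 293 CPM in control and at 244 and 241 CPM in Lhx2 cKO, so that 80.2% of its mean control level was still counted (-0.31 on the log2 scale, SE 0.098, adjusted p 0.0191 by the quasi-likelihood test of edgeR). Its call was lost without control 1 (-0.25, adjusted p 0.176), without Lhx2 cKO 1 (-0.28, adjusted p 0.102) and without Lhx2 cKO 2 (-0.34, adjusted p 0.0538). Which exons the allele removes is not given in the sources used here, so counts over the whole gene check the label only in part. The cortical label was matched by marker genes: Neurod6, a gene of cortical excitatory neurons, was at 606 ± 14.4 CPM in control and 482 ± 15.5 CPM in Lhx2 cKO, and Eomes, a gene of intermediate progenitors, at 216 ± 6.56 and 68.1 ± 3.07 CPM (SD, n = 2).

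The 7 members did not move as a group. Lin28b was higher in Lhx2 cKO, Igf2bp1 and Hmga1 were lower, and Igf2bp2, Igf2bp3, Hmga2 and Dicer1 did not pass the threshold, an adjusted p under 0.05 over all genes tested (called, from here on). Thus 3 of 7 members were called, 1 higher and 2 lower, against 20.8% of the 13288 genes tested, of which 11.6% were higher and 9.17% lower. For 6 of the 7 members every library of one group lay apart from the other group, the exception being Igf2bp2, against 57.5% of all tested genes. Log2 fold changes of the members lay between -0.57 and 1.09, around a median of 0.003 for all tested genes.

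**Figure D1:**
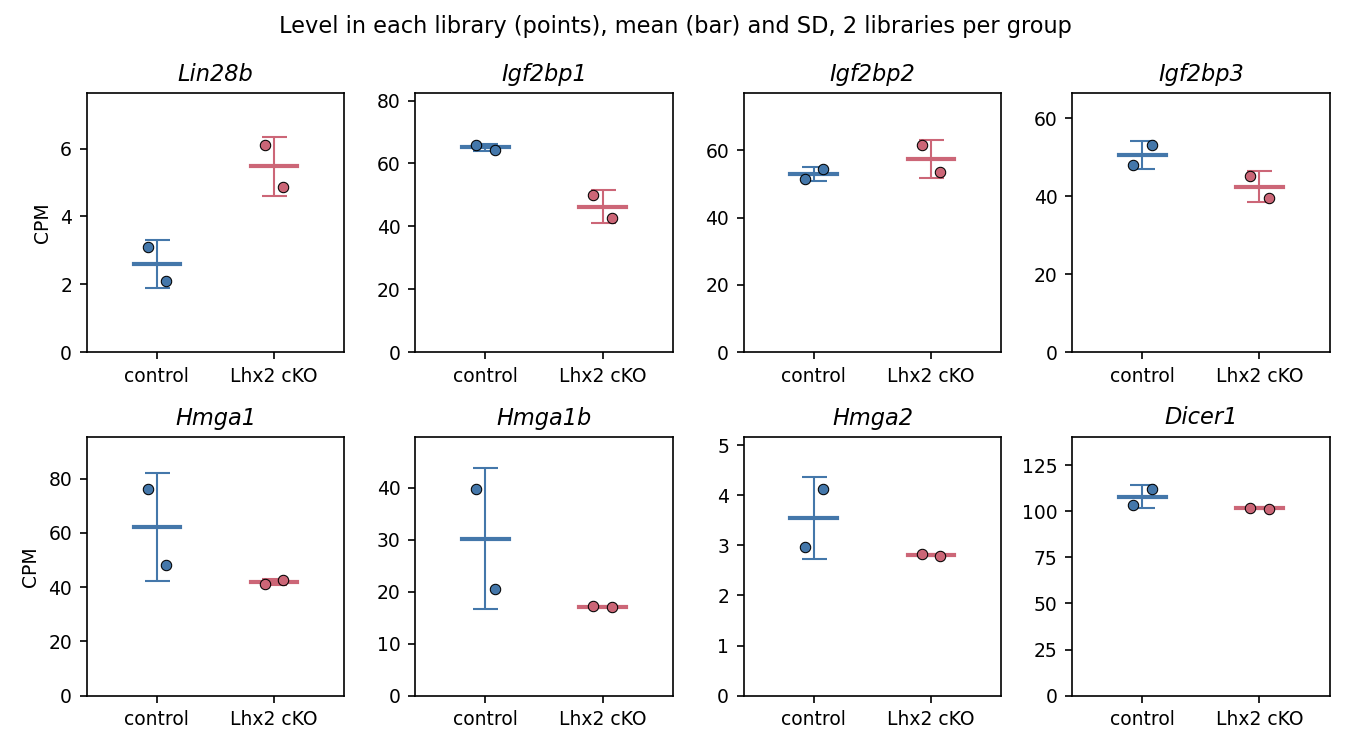
Level of each member and of Hmga1b in CPM (vertical axes from 0, a separate scale per gene) in control and Lhx2 cKO. Points are the 2 libraries of a group, thick bars their mean and thin bars the SD; Lin28b is higher in both Lhx2 cKO libraries (4.87 and 6.10 CPM), and the control libraries of Hmga1 lie at 76.3 and 48.1 CPM.

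Lin28b (ENSMUSG00000063804.9), the let-7 inhibitor, measured 3.09 CPM in control 1 and 2.09 CPM in control 2, against 6.10 and 4.87 CPM in the pair of Lhx2 cKO libraries. Both Lhx2 cKO libraries lay above both control libraries, and the lowest of them (4.87 CPM, 95% exact Poisson interval 4.02 to 5.85) was clear of the highest control library (3.09 CPM, 2.43 to 3.87) in counting error. The means were 2.59 ± 0.709 CPM in control and 5.49 ± 0.869 CPM in Lhx2 cKO (SD, n = 2). On the log2 scale Lin28b rose by 1.09 (SE 0.28, 95% interval 0.52 to 1.65), with an adjusted p of 0.00382 in edgeR. The fitted fold was therefore 2.12, on a low level: 76, 51, 136 and 115 counts in control 1, control 2, Lhx2 cKO 1 and Lhx2 cKO 2. Per kilobase of the deposited gene length the mean level of Lin28b over the 4 libraries, 0.445 RPKM (CPM per kilobase), was above that of 5.34% of tested genes. Without control 2, the lower of the control libraries, the log2 fold change was 0.81 and the call was lost (adjusted p 0.072).

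Igf2bp1 (ENSMUSG00000013415.10) encodes the zipcode-binding protein that carries and stabilises messenger RNAs, and is the Igf2bp member best known in early cortical progenitors. It was at 65.8 and 64.4 CPM in control and at 50.1 and 42.5 CPM in Lhx2 cKO. The control libraries were nearly equal, and both Lhx2 cKO libraries were below them, with the second lower than the first. The mean fell from 65.1 ± 1.0 to 46.3 ± 5.33 CPM (SD, n = 2), which left 71.1% of the control level; the log2 fold change was -0.48 (SE 0.102, 95% interval -0.69 to -0.28, adjusted p 4.19e-04 in edgeR). Its call held in each of the 4 fits that left out 1 library, with log2 fold changes from -0.57 to -0.41.

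Igf2bp3 (ENSMUSG00000029814.11), a paralog that also binds messenger RNAs in fetal tissues, was at 47.9 and 53.1 CPM in control and at 45.2 and 39.6 CPM in Lhx2 cKO. The groups did not overlap but lay close together. The means were 50.5 ± 3.63 and 42.4 ± 3.94 CPM (SD, n = 2), with a log2 fold change of -0.24 (SE 0.103, 95% interval -0.45 to -0.035); the unadjusted p was 0.0231 and the adjusted p 0.0896 in edgeR, so it was not called. Igf2bp2 (ENSMUSG00000033581.18), the paralog that persists longest after birth in many tissues, was at 51.6 and 54.5 CPM in control and at 61.5 and 53.5 CPM in Lhx2 cKO. These groups overlapped, and the log2 fold change of 0.13 (SE 0.101, 95% interval -0.077 to 0.33) did not pass (adjusted p 0.413). The intervals do not show that Igf2bp2 and Igf2bp3 were unchanged: they leave room for a rise of 0.33 on the log2 scale in Igf2bp2 and a fall to -0.45 in Igf2bp3.

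The makeup of the Igf2bp family, compared per length, differed between the groups. In control the 3 paralogs took near-equal shares of the summed Igf2bp RPKM: Igf2bp1 had 34.6% and 32.4%, Igf2bp2 35.5% and 35.9%, and Igf2bp3 29.9% and 31.7%. In Lhx2 cKO Igf2bp1 had 27.2% and 26.6%, Igf2bp2 43.7% and 43.9%, and Igf2bp3 29.1% and 29.5%. Igf2bp2 thus held the largest share in all 4 libraries, close to the Igf2bp1 share in control and well apart from both others in Lhx2 cKO. The log2 ratio of Igf2bp1 to Igf2bp2 counts, which is free of library scaling, was 0.35 and 0.24 in the control pair, and it was -0.30 and -0.33 in the Lhx2 cKO pair, a mean difference of -0.61. An exact two-sided permutation test over the 4 libraries gave p = 0.333, the smallest p that 2 libraries against 2 can give, so this design cannot pass such a test. The same p was found for each of the 4 within-family ratios computed, and adjustment left it at 0.333.

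**Figure D2:**
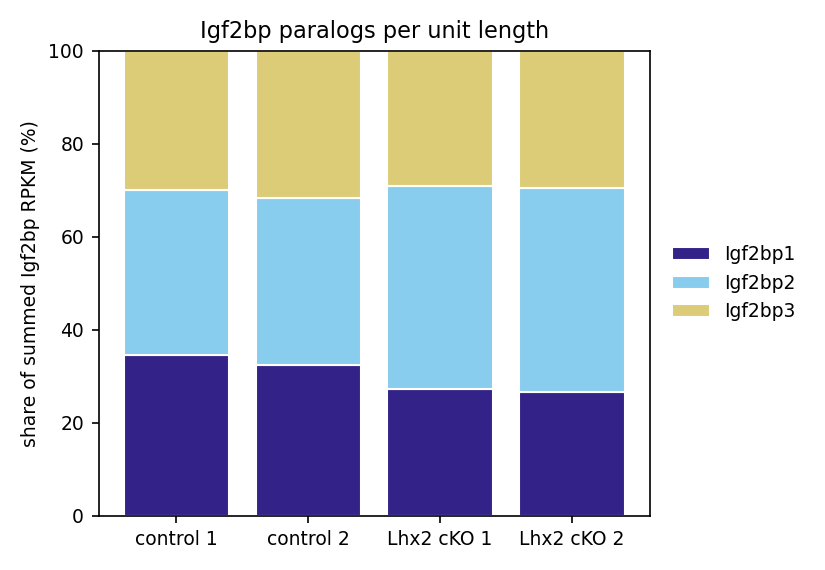
Share of the summed Igf2bp RPKM, in percent, taken by Igf2bp1, Igf2bp2 and Igf2bp3 in each of the 4 libraries (stacked to 100%). The Igf2bp1 share is 32.4% or more in the control libraries and 27.2% or less in the Lhx2 cKO libraries, and Igf2bp2 takes 43.7% or more in the latter.

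Hmga1 (ENSMUSG00000046711.17) and Hmga2 encode AT-hook proteins that bind the minor groove of DNA and shape chromatin in proliferating fetal cells. Hmga1 was at 76.3 and 48.1 CPM in control and at 41.0 and 42.6 CPM in Lhx2 cKO. Both Lhx2 cKO libraries were lower than both control libraries, but the control libraries were further from each other than control 2 was from either Lhx2 cKO library. The means were 62.2 ± 19.9 and 41.8 ± 1.14 CPM (SD, n = 2), with a log2 fold change of -0.57 (SE 0.13, 95% interval -0.83 to -0.31, adjusted p 0.00112 in edgeR's quasi-likelihood test). This call rested on control 1 and on the tool: without control 1 the log2 fold change was -0.18 (adjusted p 0.425), and in DESeq2 with all libraries it was -0.57 (adjusted p 0.3).

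Hmga1 shares sequence with Hmga1b (ENSMUSG00000078249.6), a near-identical copy of it elsewhere in the genome, so reads could be split between the 2 genes. Of the 1577 stretches of 50 bases in the Hmga1b transcript, 89.0% were found unchanged in an Hmga1 transcript, and 0 in Hmga2. Hmga1b was at 39.8 and 20.6 CPM in control and at 17.3 and 17.0 CPM in Lhx2 cKO, with the same high control 1 library. Its change on the log2 scale was -0.81 (SE 0.169, adjusted p 3.49e-04 with edgeR), -0.24 without control 1 (adjusted p 0.426) and -0.82 in DESeq2 (adjusted p 0.268). Values of Hmga1 and Hmga1b are therefore uncertain as separate genes. Exons of Hmga1 also overlap annotated genes on the other strand (AI413582 and Gm49774), and the strand setting of the counts is not given in the sources used here.

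Hmga2 (ENSMUSG00000056758.15), the let-7 target tied to self-renewal of fetal neural stem cells, was at 2.97 and 4.13 CPM in control and at 2.83 and 2.80 CPM in Lhx2 cKO. The Lhx2 cKO libraries were lower than both control libraries, with control 1 only slightly above them. The means were 3.55 ± 0.823 and 2.81 ± 0.0216 CPM (SD, n = 2), and the log2 fold change of -0.32 (SE 0.3, 95% interval -0.93 to 0.28) was not called (adjusted p 0.496). It was -0.094 without control 2 and -0.53 without control 1. Counts per library were 63 to 101, and the interval does not exclude a fall of the size seen for Igf2bp1. Per length the mean of Hmga2 was 0.524 RPKM in control, above the 0.285 RPKM of Lin28b, and 0.415 RPKM in Lhx2 cKO, below the 0.605 RPKM of Lin28b. Hmga2, Igf2bp1 and Igf2bp3 also overlap genes on the other strand (1700006J14Rik, Gm29202 and Malsu1), so their counts are uncertain where the exons overlap.

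Dicer1 (ENSMUSG00000041415.12), the nuclease that cuts microRNA hairpins into mature microRNAs, was at 103 and 112 CPM in control and at 102 and 101 CPM in Lhx2 cKO. The means were 108 ± 6.13 and 102 ± 0.425 CPM (SD, n = 2), which gave -0.075 on the log2 scale (SE 0.095, adjusted p 0.639 with edgeR). Its 95% interval, -0.27 to 0.12, was the narrowest of the 7 members. Per length Dicer1 (6.25 RPKM over the 4 libraries) stood beside Igf2bp1 (5.75), Igf2bp3 (5.70) and Igf2bp2 (7.47). The order of mean control levels per length was Hmga1 (29.3 ± 9.38 RPKM), Igf2bp2 (7.16 ± 0.278), Igf2bp1 (6.72 ± 0.104), Dicer1 (6.43 ± 0.366), Igf2bp3 (6.19 ± 0.445), Hmga2 (0.524 ± 0.122) and Lin28b (0.285 ± 0.0782; SD, n = 2). Among the control libraries Dicer1 overlapped both Igf2bp1 and Igf2bp3, while Hmga1 stood above all other members in every library and Hmga2 and Lin28b below them.

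**Figure D3:**
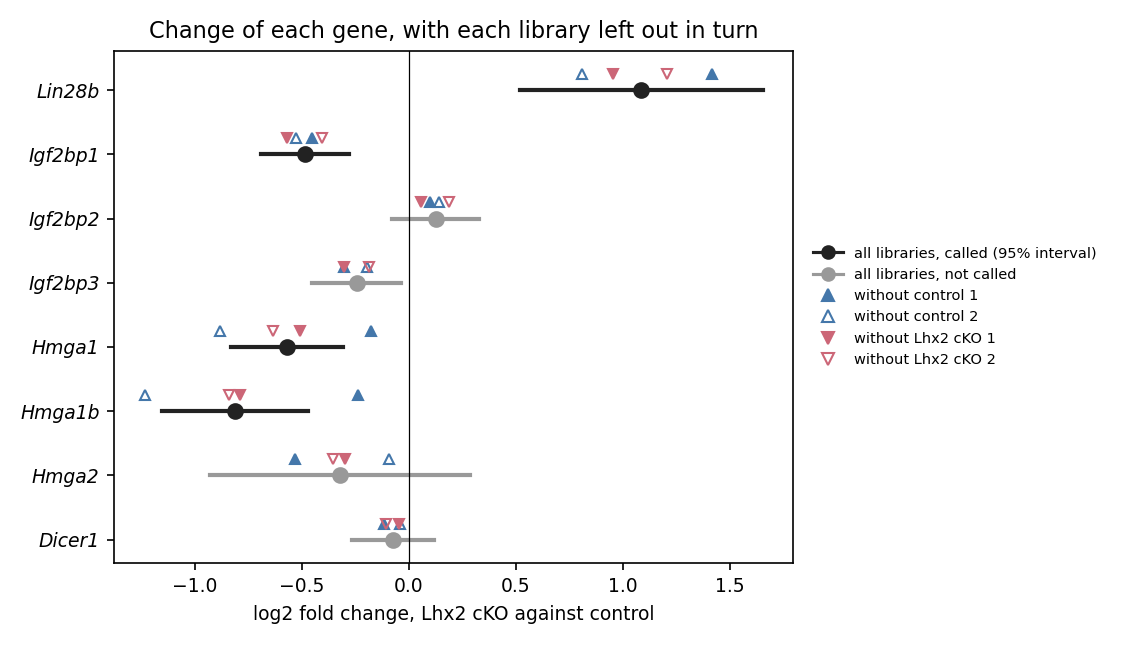
Change from control to Lhx2 cKO (log2 fold change) for each member and Hmga1b (circles, with 95% intervals; black where called, grey where not), and the same estimate with 1 library left out (triangles). Lin28b stays above 0 in each fit, from 0.81 to 1.41, Igf2bp1 stays between -0.57 and -0.41, and Hmga1 moves to -0.18 without control 1.

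Beyond the members, the machinery of microRNA maturation and silencing was examined as a list of 20 genes. Of these 3 fell, 1 rose and 16 were not called, and the median log2 fold change was -0.095. The share called was near the 20.8% over all genes, where 11.6% were higher and 9.17% lower. Without Lhx2 cKO 2, 1 gene of the list was called lower. Ago1, an Argonaute that holds microRNAs, fell from 292 ± 3.82 to 217 ± 9.06 CPM (SD, n = 2; log2 fold change -0.42, adjusted p 0.00117). Khsrp, which binds the terminal loop of let-7 precursors and favours their processing, was at -0.37, and Tnrc6b, a silencing partner of the Argonautes, at -0.36. The helicase Mov10 was at 0.44 with an adjusted p of 0.0495, and its call was lost under 5 of the 7 alternatives that kept all libraries and in each fit that left out 1 library. The microprocessor genes Drosha (-0.18, adjusted p 0.213) and Dgcr8 (-0.058, adjusted p 0.749), and Dis3l2 (0.18, adjusted p 0.351) and the uridylyl transferases Tut4 (-0.23, adjusted p 0.104) and Tut7 (-0.077, adjusted p 0.67), which act with Lin28 to degrade let-7 precursors, did not pass. Of the transcripts that host let-7 genes, 3 of 6 were analysed and none was called: Mir99ahg at -0.074, Mir100hg at -0.084 and Huwe1 at -0.27, for which the adjusted p of 0.0519 was just above the threshold. Huwe1 was under it in 5 of those 7 alternatives.

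Other known or proposed let-7 targets were taken as a list of 26 genes. Among them 5 fell, none rose and 21 were not called, and the median was -0.12. The share called was near the 20.8% over all genes, where 11.6% were higher and 9.17% lower, but all 5 calls were falls. Without Lhx2 cKO 1, 3 were called lower. Cdk6, a kinase of the G1 phase, was at 62.0 and 75.7 CPM in control and at 25.9 and 25.7 CPM in Lhx2 cKO, so its groups were far apart (log2 fold change -1.40, SE 0.108, adjusted p 1.61e-13). Nr2e1, an orphan receptor of neural stem cells, was at -1.11 (adjusted p 8.16e-08), the cyclin Ccnd2 at -0.85 (adjusted p 4.76e-09), the insulin receptor substrate Irs2 at -0.39 and the heme-binding repressor Bach1 at -0.34. The seed match CTACCTC stood in the 3'UTR of 17 of the 26 genes, but of the 5 that fell it stood in 2, Irs2 and Bach1. The genes with the most matches were Nr6a1 with 8, at a log2 fold change of 0.14 (adjusted p 0.726), and Hic2 with 4, at 0.13 (adjusted p 0.381).

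The insulin-like growth factor axis, after which the Igf2bp genes are named, gave 2 rises and 3 falls among 10 analysed genes. Their median was -0.023, and Igf2 was not analysed here. Over all tested genes 11.6% were called higher and 9.17% lower. Irs1, the first adaptor below the receptors, was at 9.79 and 8.02 CPM in control and 2.47 and 2.80 CPM in Lhx2 cKO (log2 fold change -1.75, SE 0.237, adjusted p 3.01e-07). The binding proteins went both ways: Igfbp5 fell (-0.97, adjusted p 3.10e-09), while Igfbp2 (0.46, adjusted p 0.00131) and Igfbp3 (0.30, adjusted p 0.0228) rose. Of these 2 rises 1 was called without control 1 and 0 without Lhx2 cKO 2. The receptor genes Igf1r (-0.038, adjusted p 0.827) and Insr (-0.0088, adjusted p 0.962) were not called. The remaining fall was Irs2 (-0.39), which, like Igf1r and Insr, also stood in the let-7 target list, so the 2 lists overlap.

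Proteins found with Igf2bp1 on messenger RNAs gave 1 fall, Syncrip (-0.31, adjusted p 0.0136), no rise and 10 genes not called of 11 analysed, with a median of -0.11; without Lhx2 cKO 2 none of the 11 was called lower. The writers, erasers and readers of N6-methyladenosine, a mark that Igf2bp proteins read, gave 1 rise, the helicase Ythdc2 (0.41, adjusted p 0.0403), and 13 genes not called of 14, with a median of -0.11; the Ythdc2 call was lost in DESeq2, with library totals and in each fit that left out 1 library. The other high-mobility-group chromatin genes gave 6 falls, no rise and 3 genes not called of 9, with a median of -0.41. Over all tested genes 20.8% were called, 11.6% higher and 9.17% lower. Hmgb2, a chromatin protein of dividing cells, was at 85.4 and 84.1 CPM in control and 45.7 and 41.7 CPM in Lhx2 cKO (log2 fold change -0.95, SE 0.1, adjusted p 1.00e-09). Hmgn5 was at -0.73, Hmgn3 at -0.63, Hmgn2 at -0.58, Hmgb1 at -0.41 and Hmg20b at -0.29. Unlike that of Hmga1, the control levels of Hmgb2 differed little between the libraries, with an SD of 0.916 CPM.

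**Figure D4:**
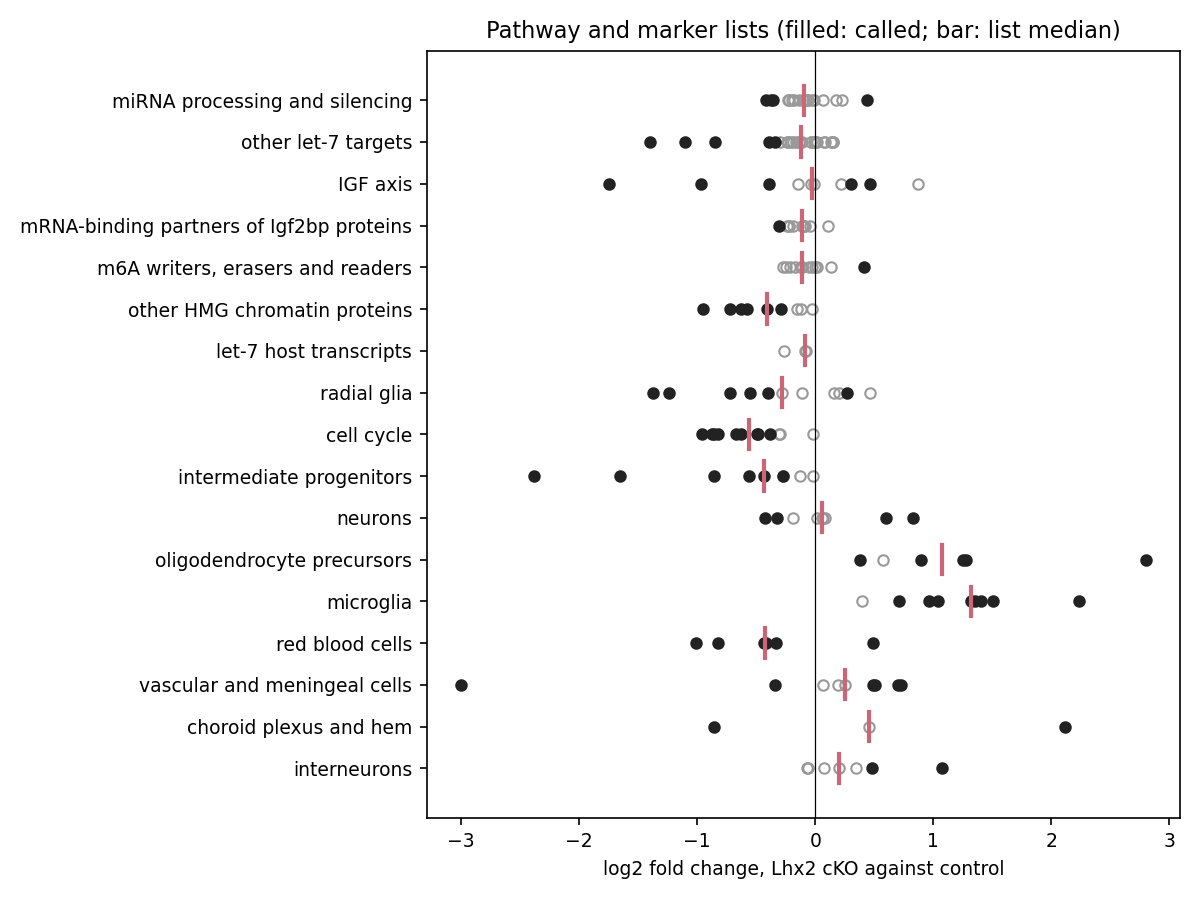
Change from control to Lhx2 cKO (log2 fold change) for the genes of the 7 pathway lists and 10 cell type marker lists (filled circles are called, open circles are not), with the list median as a vertical bar. The HMG list has its median at -0.41, the cell cycle list at -0.56 and the microglia list at 1.32, while the microRNA processing list centres on -0.095.

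Markers of cell types moved between the groups beside these changes. In bulk samples fewer cells of a type and less RNA per cell cannot be told apart. The counts of markers below stand beside 11.6% called higher and 9.17% called lower over all tested genes. Of 12 cell cycle genes 9 fell (median -0.56; without control 2, 5 fell and the median was -0.40, and without control 1 the median was -0.76), with a summed level of 435 to 506 CPM in control and 293 to 306 CPM in Lhx2 cKO. Of 9 intermediate progenitor markers 6 fell (median -0.43), from a summed 871 to 906 CPM to 568 to 571 CPM, and of 11 radial glia markers 5 fell and 1 rose (median -0.28; the rise was not called in the fits without control 1, without Lhx2 cKO 1 or without Lhx2 cKO 2), from 856 to 925 CPM to 769 to 833 CPM. Of 9 microglia markers 8 rose (115 to 121 CPM against 244 to 257 CPM), as did 5 of 6 markers of oligodendrocyte precursors (46.2 to 54.8 CPM against 89.7 to 93.9 CPM). Neuron markers gave 2 rises and 2 falls of 9 (1 fall without control 1, without Lhx2 cKO 1 or without Lhx2 cKO 2), with 5828 to 5870 CPM in control and 6090 to 6112 CPM in Lhx2 cKO.

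The remaining lists moved less evenly, beside the same 11.6% called higher and 9.17% called lower over all tested genes. Of 9 vascular and meningeal markers 4 rose and 2 fell (256 to 291 CPM against 301 to 317 CPM; 2 rose without control 1, and 1 fell without control 2 or without Lhx2 cKO 2), and of 7 interneuron markers 2 rose (212 to 238 CPM against 273 to 295 CPM). Of 10 choroid plexus and hem markers 3 were analysed, with 1 rise and 1 fall, and a summed 51.2 to 53.9 CPM in control and 39.0 to 39.2 CPM in Lhx2 cKO. Red blood cell markers, 5 lower and 1 higher of 6 analysed (1 lower without control 1, 3 lower without Lhx2 cKO 2 or in DESeq2, and the rise lost without control 2 or without Lhx2 cKO 1), summed to 3124 CPM in control 1, 2390 in control 2 and 1848 to 2172 CPM in Lhx2 cKO, so that control 1 was the highest library for them as for Hmga1, whereas the cell cycle sum was lower in control 1 (435 CPM) than in control 2 (506 CPM). No marker analysed was at 0 in any library. The part of these cell types in the changes of Lin28b, Igf2bp1 and Hmga1 was not tested.

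The genes most like each called member were taken as those with the smallest distance between log2 CPM values in the 4 libraries, each centred on its own mean, among 10724 genes of at least 5 CPM. For Lin28b these were Eif3j1 (distance 0.14), Syndig1 (0.248) and Nefl (0.256), with log2 fold changes of 1.10, 1.18 and 1.12. For Igf2bp1 they were Iqsec1 (0.0285), Top1 (0.0306) and Eml3 (0.0327), and each of them was lower in Lhx2 cKO 2 than in Lhx2 cKO 1, as Igf2bp1 was. For Hmga1 they were Sox12 (0.0495), Ppp1r9b (0.06) and Cotl1 (0.0692). Sox12 was at 401 and 262 CPM in control and at 225 and 233 CPM in Lhx2 cKO, so the high value of control 1 was not limited to Hmga1 and Hmga1b. The likeness in fold change and in the order of libraries follows from this choice of genes. With 4 libraries a small distance describes these libraries and shows no shared control.

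In the authors' deposited table, Lin28b was marked up, with a log2 fold change of 1.08 and an adjusted p of 0.00169. That table gave Igf2bp1 a log2 fold change of -0.49 (adjusted p 1.23e-04) and Hmga1 one of -0.58 (adjusted p 4.89e-04), both with the mark NS. The authors' deposited table marked Hmga1b down, at -0.82. Lhx2 was marked NS there too, at -0.32 (adjusted p 0.0117). Lin28b was marked up at a larger adjusted p than those of Igf2bp1 and Hmga1. The mark NS therefore did not follow the adjusted p alone.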

How the data were processed

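RNA-seq was made from polyadenylated RNA of E15 cortex in 2 control and 2 Lhx2 cKO libraries. The authors deposited raw read counts per gene, and the submitters' processing notes name mm39, Trim Galore, Subread, featureCounts and edgeR with no versions. The deposited gene lengths in bases were used for RPKM. The authors' deposited log2 fold changes and log2 CPM, and their p-values and adjusted p-values, are quoted only where named; the deposited −log10 column was not used.

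Counts were tested with edgeR 4.0.16 in R 4.3.3 (TMM, filterByExpr with a minimum of 10 counts, glmQLFit and glmQLFTest, no covariates, two-sided, Benjamini-Hochberg over 13288 genes). The filter removed 1 gene. SE was taken as |log2 fold change| over the root of F, and 95% intervals use the test's degrees of freedom. The common biological coefficient of variation was 8.27%. CPM use library totals without TMM. Poisson intervals and floors cover counting error only, while intervals of log2 fold changes also include the estimated spread between libraries. The procedure was tested on counts simulated from its own fitted means and dispersions. Such a test cannot show whether the real libraries follow that model. Libraries of one group were not duplicates: their chi-square over its degrees of freedom was 13.9 in control and 14.3 in Lhx2 cKO.

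The members and lists were chosen with earlier results of these data known. Named genes are all members, Lhx2, the called genes with the 4 smallest p in each pathway list (of the marker lists, for which the rule allowed as many, Eomes and Neurod6 alone are named) and the 3 nearest patterns per called member; further genes of a list, Hmga1b and the 3'UTR search were added after values were seen. Alternatives used limma 3.58.1 (voom), DESeq2 1.42.0, other scalings and filters, the replicate number as a block, and each library left out. Sequences are from RefSeq (GRCm38.p6) and GENCODE M21 transcripts. That build differs from mm39, so no coordinates are given. Of the tested genes 95.4% had a 3'UTR there.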

Additional observations from a re-analysis of the deposited data

How the results depend on the processing

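Lin28b, Igf2bp1 and Hmga1 kept their direction in all 11 alternatives, as did Lhx2 and the 4 members that were not called. With all libraries, Lin28b (adjusted p 0.0015 to 0.0111), Igf2bp1 (2.47e-04 to 7.03e-04) and Lhx2 (0.00755 to 0.0234) stayed called in each of the 7 other scalings, filters, tools and the block, and Hmga1 was lost in DESeq2 (-0.571, adjusted p 0.3). The cause was not tested. Igf2bp2, Igf2bp3, Hmga2 and Dicer1 were not called in any alternative. Fits that left out 1 library assume that the lone sample varies like the other group. In these the log2 fold change ranged from 0.81 to 1.41 for Lin28b, from -0.88 to -0.18 for Hmga1 and from -0.38 to -0.25 for Lhx2. The count of called genes ranged from 1633 (without Lhx2 cKO 2) to 2396, against 2758 with all libraries, and was 1790 without control 1.

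Same-numbered libraries gave no sign of pairing over all genes: the differences between replicates 1 and 2 correlated at -0.0069 between the groups. This correlation over all genes cannot exclude a pairing that touches few genes. A fit with the replicate block called 2874 genes, which included 2736 of the 2758, and all 3 called members, with Lin28b at 1.10. Depth limits Lin28b and Hmga2, with 51 to 136 counts per library. Other scalings moved the median of all genes to at most -0.0071.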

Other observations

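The seed match CTACCTC was counted in the 3'UTRs of all tested genes, a search added after the data had been seen. Of 12667 tested genes with a 3'UTR, members left out, 11302 had 0 matches, 1203 had 1 and 162 had 2 or more. The share of called genes was 20.9% with 0 matches, 21.5% with 1 and 19.1% with 2 or more, against 20.9% over all of them. Median log2 fold changes were 0.003, 0.009 and -0.026, and 3'UTR lengths differed between these classes, with medians of 1138, 2293 and 3722 bases. Among genes with 2 or more matches 8.64% were called higher and 10.5% lower.

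Apart from the members, 18 genes had 3 or more matches, and 3 of them were called. Diaph2, a formin that organises actin, had 9.27 ± 0.301 CPM in control and 4.63 ± 0.496 CPM in Lhx2 cKO (SD, n = 2), and fell with -0.99 on the log2 scale (adjusted p 3.27e-04 in edgeR). Zbtb37, a zinc finger gene with 4 matches, was at -0.63 (adjusted p 0.00582), and Trim67, a ubiquitin ligase of neurons, was at 0.28 (adjusted p 0.0338). Mcf2l, with 7 matches, was at -0.076 (adjusted p 0.636), and Ago2, with 3, at -0.20 (adjusted p 0.172). These genes were named after their values were seen.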
